A study of Mus musculus with 2 samples.

Results

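Vascular endothelial cells, the cells that line blood vessels, were examined in inflamed mouse back skin. Members were chosen by their measured UMIs, each of which is 1 counted RNA molecule: a cell barcode needed a UMI of at least 3 of 7 endothelial genes (Pecam1, Cdh5, Plvap, Emcn, Flt1, Kdr and Tie1). They also had no UMI of the lymphatic genes Prox1, Mmrn1 and Reln. Krt5 and Krt14 together, and Col1a1, Col1a2, Col3a1 and Dcn together, each made up under 0.5% of the UMIs of a member. Barcodes were kept from 1000 UMIs and 200 genes upward, with mitochondrial UMIs of 10% or less, and 283 of 21231 kept barcodes were members. The Chrna5 KO library held 206 of these and the WT library 77.

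Blood vessels of the skin run from arterioles through capillaries to postcapillary venules. The venules are the site where leukocytes attach to selectins and immunoglobulin-type adhesion molecules before they leave the blood. Endothelial cells carry receptors for type I and type II interferons. Signals from these receptors act through STAT and IRF factors on antiviral genes, on GTPases that attack intracellular pathogens and on antigen presentation. Endothelium also lays down the basement membrane on which it rests, together with the pericytes that wrap small vessels.

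The 2 libraries were made from dorsal skin of female mice aged 6 to 8 weeks, with 1 library of Chrna5 KO mice and 1 library of WT mice. Chrna5 is the gene of a subunit of nicotinic receptors, ion channels that open on acetylcholine. Mice of both genotypes had received imiquimod, a Toll-like receptor agonist that produces a psoriasis-like dermatitis, as 62.5 mg of 5% cream on the shaved back on 6 days, and skin was taken on day 7. The labels give 5 mice per experimental group without saying whether a library pools several of them. The KO line had been backcrossed for more than 10 generations to C57BL/6N, and the labels name C57BL/6J as well. The deletion is not restricted to endothelium by any promoter that the labels name. Skin was digested with collagenase, and live cells were sorted as SytoxBlue-negative. The group that received the cream base is not analysed here. With 1 library per genotype there is no replicate error and no test, so each difference is one between 2 libraries, and every interval covers counting error only.

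The KO library held 123839924 UMIs in 10886 barcodes and the WT library 147260653 UMIs in 14557 barcodes, of which 9605 in KO (88.2%) and 11626 in WT (79.9%) passed the limits. The libraries shared 49 barcode sequences, none of them among members. Members had a median of 10259.5 UMIs (lowest 1200, highest 116555) in KO and 12266 (lowest 1475, highest 48982) in WT. Their summed UMIs came to 3082000 in KO and 1161483 in WT, and levels are given in CPM, the UMIs of a gene per 1000000 UMIs of these sums. Chrna5 itself had 0 UMIs in KO members, which allows a level of up to 0.973 CPM, and 1 UMI in WT members, too few to check the genotype. No member of a list of 15 nicotinic and cholinergic genes reached a mean of 25 CPM, and their summed level was 4.22 CPM in KO and 5.17 CPM in WT.

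The 4 defining markers were present in both libraries. Pecam1, a junctional adhesion molecule, had 444 CPM in KO and 694 CPM in WT members. Cdh5, the cadherin of endothelial junctions, had 375 CPM in KO and 426 CPM in WT. Plvap, which forms the diaphragms of fenestrae and caveolae, had 597 CPM in KO and 1317 CPM in WT. Emcn, a sialomucin of capillaries and veins, had 277 CPM in KO and 461 CPM in WT. In all other kept barcodes the sum of the 4 markers was 23.7 CPM in KO and 14.8 CPM in WT, against 1693 CPM in KO and 2899 CPM in WT members. Since these genes chose the cells, their levels are a description.

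The members were not pure in either library, and they were mixed in different ways. At least 2 of 7 pericyte genes had a UMI in 90 KO members (43.7%, exact 95% interval 36.8 to 50.8) and in 12 WT members (15.6%, 8.32 to 25.6). At least 3 of 10 macrophage markers were found in 3 KO members (1.46%) and in 8 WT members (10.4%). At least 3 of 6 fibroblast markers outside the rule were found in 9 KO members (4.37%) and in 1 WT member (1.30%). Summed fibroblast markers came to 503 CPM in KO and 118 CPM in WT, macrophage markers to 75.3 CPM in KO and 659 CPM in WT, and the lymphatic rule genes were at 0 in both. T cell markers summed to 14.3 CPM in KO and 1.72 CPM in WT, and keratinocyte markers to 3013 CPM in KO and 3768 CPM in WT.

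A stricter set of cells was therefore added after the data had been seen. It required at least 5 of the 7 endothelial genes, fewer than 2 pericyte genes, and fewer than 3 macrophage and fewer than 3 fibroblast markers. It kept 70 KO members (34.0%) and 49 WT members (63.6%), with median depths of 8100 UMIs in KO and 11736 UMIs in WT. The strict cells were still mixed in different ways. Their pericyte markers summed to 337 CPM in KO and 42.9 CPM in WT, their keratinocyte markers to 807 CPM in KO and 2216 CPM in WT, and their neutrophil markers to 12.4 CPM in KO and 374 CPM in WT. Erythroid markers summed to 778 CPM in KO and 90.2 CPM in WT strict cells. The part of these other RNAs in the results was not tested. Values in the strict cells are given beside the main results.

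**Figure D1:**
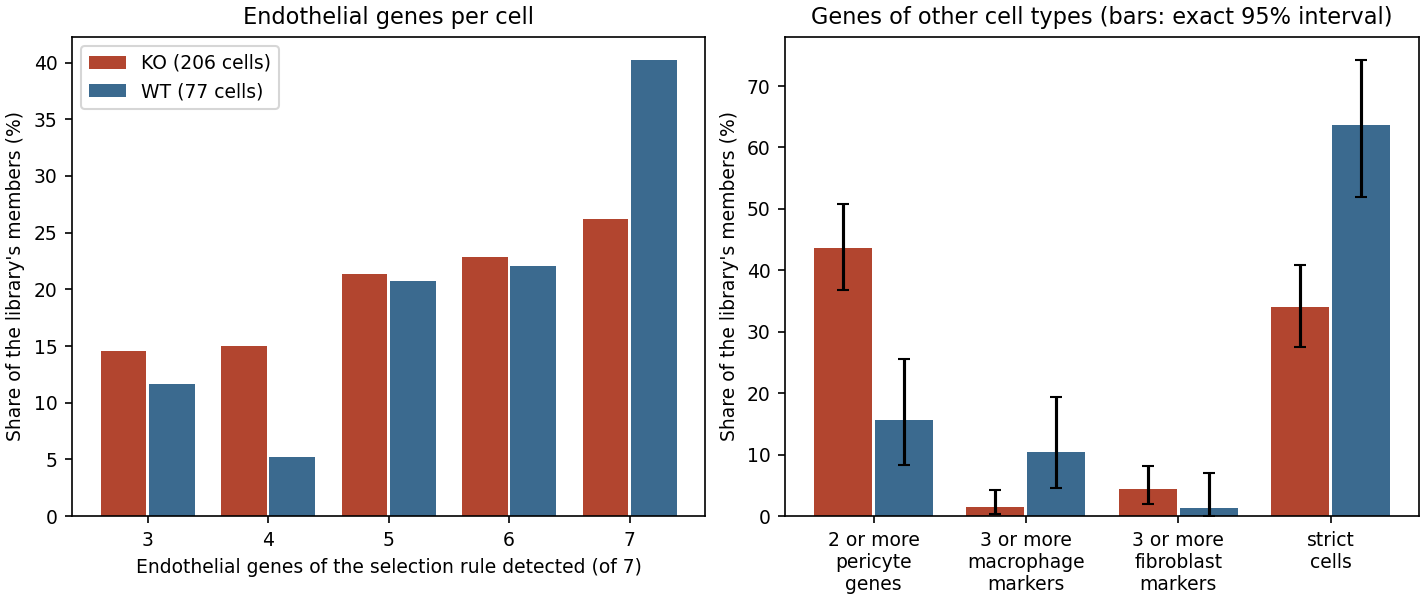
Left, share of the members of each library (y axis, percent) by the number of endothelial genes of the rule with a UMI (x axis); right, share of members with genes of other cell types and share that met the stricter definition, with exact 95% intervals as bars. All 7 endothelial genes were found in 26.2% of KO members and 40.3% of WT members, and the pericyte gene bar is the one in which KO lies furthest above WT.

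At the edge of the rule, the 30 KO members with exactly 3 of 7 endothelial genes had 311 CPM of these genes in sum, and the 9 such WT members had 451 CPM. The 92 KO barcodes and 82 WT barcodes with exactly 2 of 7 that met the other limits had 119 CPM in KO and 136 CPM in WT. Endothelial genes outside the rule summed to 462 CPM in KO and 1067 CPM in WT just inside the edge. Just outside it they summed to 101 CPM in KO and 83.3 CPM in WT.

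Members made up 2.14% of the kept barcodes in KO (exact 95% interval 1.86 to 2.45) and 0.662% in WT (0.523 to 0.827), a ratio of 3.24. The strict cells made up 0.729% in KO and 0.421% in WT, a ratio of 1.73. Before the lymphatic, keratin and collagen limits, 320 KO and 169 WT barcodes had at least 3 of the 7 genes. The keratin limit took out 3 of these in KO and 26 in WT. A share also depends on how many other cells were recovered, which cannot be told apart here from the number of vessel cells in the skin.

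Of 4621 genes with a mean of at least 25 CPM over both libraries, 367 (7.94%) were at least 2-fold higher in KO and 225 (4.87%) at least 2-fold lower. In the strict cells, of 4361 genes, 258 (5.92%) were at least 2-fold higher and 396 (9.08%) at least 2-fold lower. The median log2 ratio of KO over WT was 0.16 over all measured genes and -0.04 over those of the strict cells, and list medians are read against these. Scaling by the median ratio in place of the total gave 254 genes higher and 345 lower, so the split between higher and lower genes rests on the scale.

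Antiviral interferon-stimulated genes were higher in KO vascular endothelium. Of 27 measured genes of this list, 17 were at least 2-fold higher in KO, against 7.94% of all measured genes, and 0 were at least 2-fold lower. The median log2 ratio was 1.25. All 27 had a ratio above 1. Among strict cells 24 of 29 were at least 2-fold higher, against 5.92% of all genes measured there, and the median was 1.61. The 35 genes of the list summed to 11747 CPM in KO and 6542 CPM in WT members, and to 18227 CPM in KO and 7099 CPM in WT strict cells. Outside the vascular members the sums were closer. All other kept barcodes had 1126 CPM in KO and 1040 CPM in WT. Lymphatic endothelial cells had 5031 CPM in KO and 5766 CPM in WT, and pericytes 1968 CPM in KO and 2440 CPM in WT.

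The difference was spread over many cells. Per cell, the summed antiviral list ran from 77.3 CPM through a median of 13608 CPM to 40948 CPM in KO members, against 693, 6085 and 16364 CPM in WT members. The ranges overlapped, and 122 of 206 KO members (59.2%, 52.2 to 66.0) lay above 11057 CPM, the 90th percentile of WT members. With each cell thinned to 1000 UMIs, the list had a mean of 14.0 UMIs in KO and 6.64 UMIs in WT, so the gap was also present at equal depth. It was largest in the cells with most endothelial genes. Members with all 7 genes had 17377 CPM in KO and 7364 CPM in WT, and members with only 3 had 1926 CPM in KO and 2923 CPM in WT. These groups are set by genes of the selection rule, and they differ in mixture and depth. Members with only 3 had 1641 CPM of fibroblast genes in KO and 97.7 CPM in WT, and 26.2 CPM of macrophage markers in KO and 721 CPM in WT. Median depths with all 7 were 19312 UMIs in KO and 12663 UMIs in WT. The part of mixture and depth in this pattern was not tested.

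**Figure D2:**
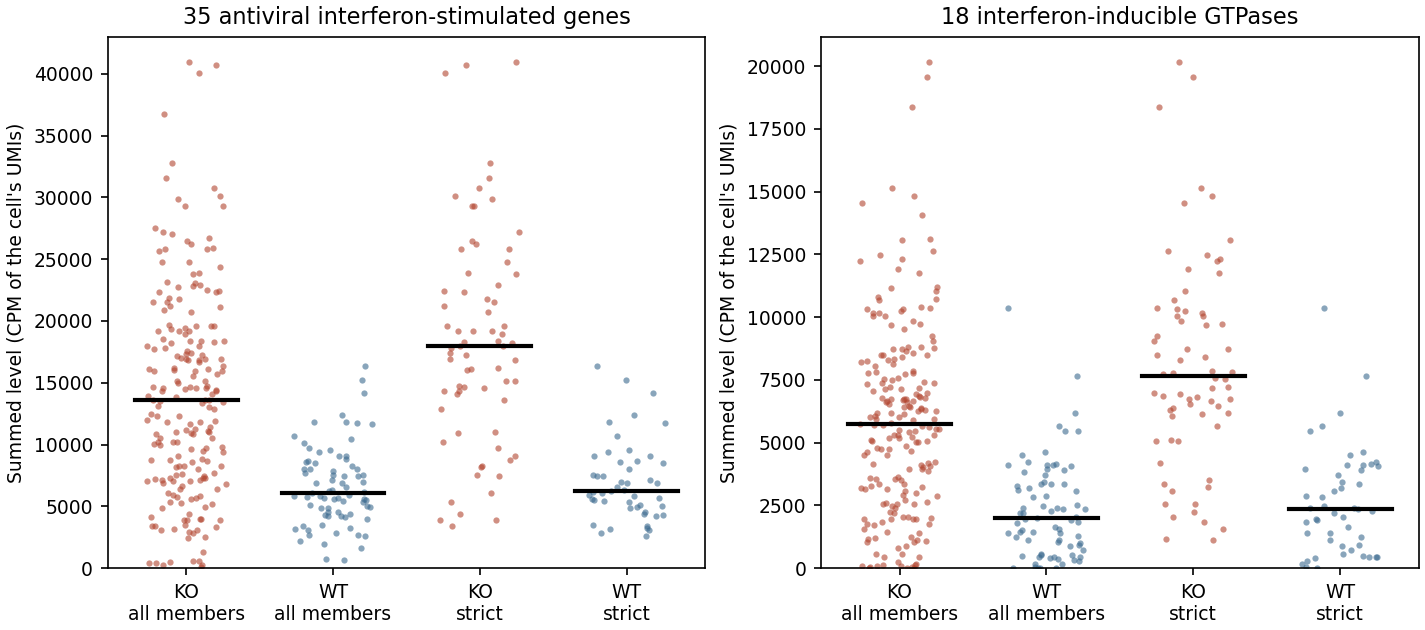
Summed level per cell (y axis, CPM of the cell's own UMIs) of the 35 antiviral interferon-stimulated genes (left) and the 18 interferon-inducible GTPases (right), for all members and strict cells of each library; each point is 1 cell and the line is the median. KO cells reach 40948 CPM for the antiviral list and WT cells 16364 CPM, and the clouds overlap in their lower range.

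Rsad2, which encodes viperin, an enzyme that makes a chain-terminating nucleotide against viruses, was the antiviral gene with the most UMIs among those with more than a 5-fold difference. The gene lies at chr12:26442746-26456452 on the minus strand. It had 1632 CPM in KO and 205 CPM in WT members, a ratio of 7.96 (6.99 to 9.11), and 2603 CPM in KO and 235 CPM in WT strict cells. It was found in 170 KO members (82.5%) and 36 WT members (46.8%), against 3.99% of KO and 2.34% of WT keratinocyte barcodes, taken as the background of free RNA. Those keratinocyte barcodes had median depths of 18873 UMIs in KO and 8468.5 UMIs in WT. Per cell, Rsad2 had a median of 1111 CPM and a highest value of 13381 CPM in KO, against a median of 0 and a highest value of 2331 CPM in WT. In lymphatic endothelial cells the order was the other way, with 125 CPM in KO and 787 CPM in WT.

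The IFIT proteins bind foreign RNA ends, and Isg15 is a ubiquitin-like modifier. Ifit3 (chr19:34583531-34588731, plus strand) had 295 CPM in KO and 35.3 CPM in WT, a ratio of 8.36 (6.11 to 11.7). Ifit1 had 1104 CPM in KO and 232 CPM in WT, a ratio of 4.76 (4.21 to 5.41), and Ifit2 had 273 CPM in KO and 52.5 CPM in WT. Isg15 (chr4:156199424-156200818, minus strand) had 513 CPM in KO and 91.3 CPM in WT, a ratio of 5.62 (4.62 to 6.91). Isg15 was found in 85.4% of KO and 49.4% of WT members, against 14.3% of KO and 7.08% of WT keratinocyte barcodes. In these 4 genes the KO level was above the WT level also without the cell that held most of their UMIs. Ifit3 and Ifit3b have near-identical sequences, and how reads were divided between them is not known.

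Cmpk2, the mitochondrial nucleotide kinase that lies beside Rsad2, had 120 CPM in KO and 18.1 CPM in WT. Usp18, which removes Isg15 from proteins and damps the type I receptor, was 3.78-fold higher in KO (2.58 to 5.75). Irf7, a transcription factor that amplifies type I interferon responses, had 202 CPM in KO and 93.0 CPM in WT. Stat2, a partner in the factor that type I interferons activate, had 83.4 CPM in KO and 30.1 CPM in WT. Ifih1, the RNA sensor MDA5, had 144 CPM in KO and 56.0 CPM in WT. Ifitm3, a membrane protein that hinders virus entry and the list's most abundant gene, differed little, with 4488 CPM in KO and 4127 CPM in WT.

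**Figure D3:**
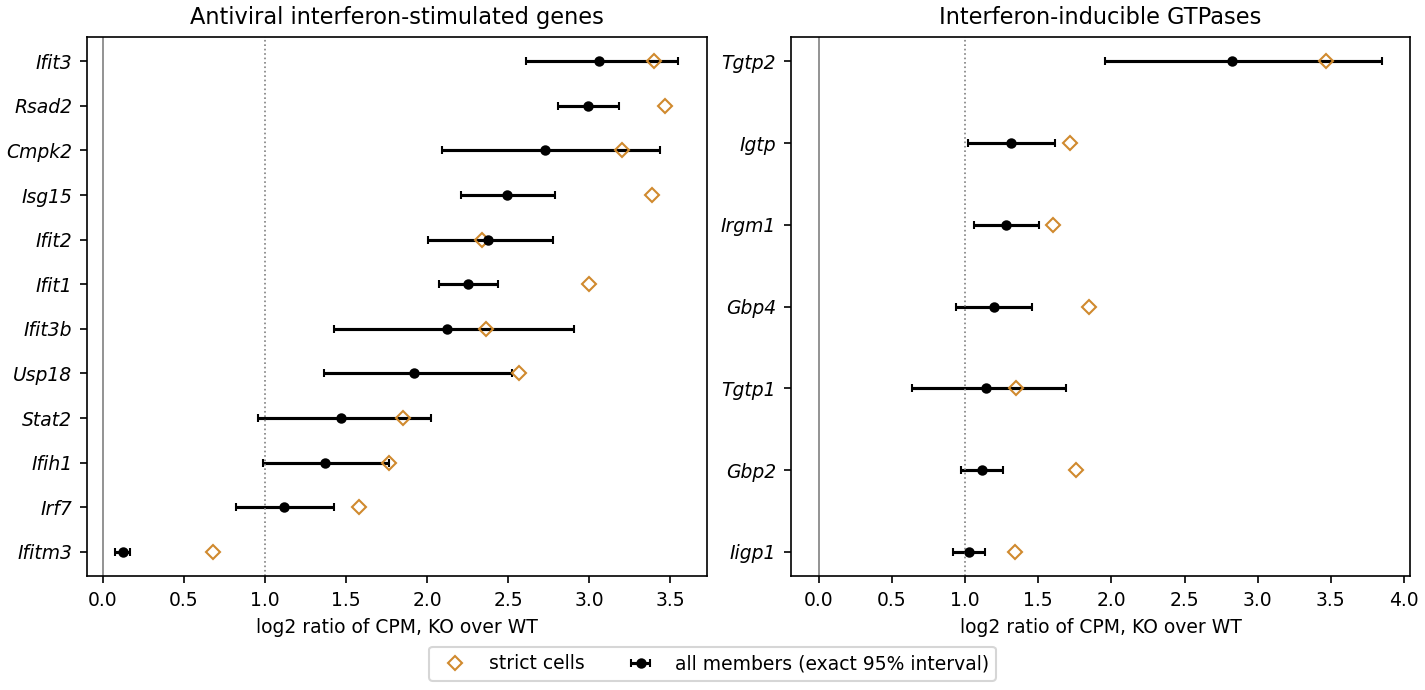
Log2 ratio of CPM, KO over WT (x axis), for 12 antiviral interferon-stimulated genes (left) and 7 interferon-inducible GTPases (right) described here; circles are all members with exact 95% intervals, diamonds are strict cells, and the dotted line marks 2-fold. Circles lie right of 0 for every gene shown, with Ifit3 and Rsad2 at the top of the antiviral list and Tgtp2 at the top of the GTPases.

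Promoter sequences are shown for genes of the interferon lists and for Cd274, because many such promoters carry an interferon-stimulated response element, and for the venous gene Lrg1 as a contrast. Each run gives the 250 bases before the annotated start in GRCm38.p6, from RefSeq, 5′ to 3′ on the strand of the gene. Capitals mark matches to the element core GAAANNGAA on either strand, and overlapping matches run together.
Rsad2, chr12:26456453-26456702, minus strand: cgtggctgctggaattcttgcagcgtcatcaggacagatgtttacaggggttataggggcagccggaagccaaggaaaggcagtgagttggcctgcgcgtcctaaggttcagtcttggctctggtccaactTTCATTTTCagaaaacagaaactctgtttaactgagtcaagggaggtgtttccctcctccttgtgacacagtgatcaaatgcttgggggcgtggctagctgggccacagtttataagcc
Ifit3, chr19:34583279-34583528, plus strand: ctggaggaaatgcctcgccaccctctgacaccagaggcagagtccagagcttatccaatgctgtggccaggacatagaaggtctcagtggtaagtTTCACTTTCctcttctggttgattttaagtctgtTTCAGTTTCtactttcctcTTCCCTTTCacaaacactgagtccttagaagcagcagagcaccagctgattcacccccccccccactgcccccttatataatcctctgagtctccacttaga
Isg15, chr4:156200819-156201068, minus strand: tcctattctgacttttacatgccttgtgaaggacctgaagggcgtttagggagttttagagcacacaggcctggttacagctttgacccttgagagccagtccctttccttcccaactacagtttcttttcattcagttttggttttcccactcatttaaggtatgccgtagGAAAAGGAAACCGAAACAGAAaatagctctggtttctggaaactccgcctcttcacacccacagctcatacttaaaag
Irgm1, chr11:48871421-48871670, minus strand: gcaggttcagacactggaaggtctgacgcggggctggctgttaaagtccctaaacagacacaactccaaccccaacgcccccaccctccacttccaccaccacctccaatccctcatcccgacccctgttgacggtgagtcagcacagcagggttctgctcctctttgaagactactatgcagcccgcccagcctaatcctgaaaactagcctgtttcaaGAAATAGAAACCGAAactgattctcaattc
Cd274, chr19:29367188-29367437, plus strand: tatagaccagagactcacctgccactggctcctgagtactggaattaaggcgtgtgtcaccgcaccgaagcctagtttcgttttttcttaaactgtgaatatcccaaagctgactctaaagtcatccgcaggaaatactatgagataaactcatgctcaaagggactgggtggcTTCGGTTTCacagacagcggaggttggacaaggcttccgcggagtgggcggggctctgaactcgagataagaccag
Lrg1, chr17:56121947-56122196, minus strand: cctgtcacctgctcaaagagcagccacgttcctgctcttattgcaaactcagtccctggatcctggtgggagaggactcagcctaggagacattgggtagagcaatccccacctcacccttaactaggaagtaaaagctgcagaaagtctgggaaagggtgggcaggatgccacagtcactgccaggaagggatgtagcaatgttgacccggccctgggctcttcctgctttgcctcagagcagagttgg

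Rsad2 had 1 match whose first base lies 119 bases before the start, Ifit3 and Isg15 had 3 each, Irgm1 had 2, Cd274 had 1 at 76 bases before the start, and Lrg1 had 0. Of the 28 genes in the antiviral and GTPase lists that were at least 2-fold higher in KO, 23 had a promoter in the table, and 16 of these (69.6%) held the core within 250 bases before to 50 bases after the start. Of the measured genes of these lists under 2-fold, 7 of 11 with a promoter (63.6%) held it. Of all measured genes with a promoter, 350 of 3653 (9.58%) did, and of all 27025 genes with a promoter 2638 (9.76%). A gene was counted when any of its promoters held the core. Among genes of the venous, adhesion and matrix lists that were at least 2-fold lower in KO, 0 of 8 with a promoter held it. The kappa B form GGNNNTTCC, searched the same way, was found in 7 of 23 (30.4%), 3 of 11 and 1 of 8 genes of these groups. The shares were 25.6% of the measured genes with a promoter and 20.7% of all genes with a promoter.

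The interferon-inducible GTPases, which attack the membranes around intracellular pathogens, were higher in KO as a group. Of 16 measured, 11 were at least 2-fold higher in KO, against 7.94% of all measured genes, and 0 lower, with a median log2 ratio of 1.11. The count rests on the setting. On the median ratio scale it was 6 of 16, with 254 of all 4621 measured genes higher. With at least 4 of the 7 endothelial genes it was 14 of 16, with 250 genes higher in all. Strict cells had 16 of 16 at least 2-fold higher, against 5.92% of all genes measured there, with a median of 1.57. The list summed to 4746 CPM in KO and 2228 CPM in WT members, and the median cell had 5755 CPM in KO and 2016 CPM in WT. A total of 132 KO members (64.1%, 57.1 to 70.6) lay above 4338 CPM, the 90th percentile of WT members. For these genes the other cells pointed the same way. Lymphatic cells had 961 CPM in KO and 508 CPM in WT, pericytes 568 CPM in KO and 329 CPM in WT, and all other kept barcodes 118 CPM in KO and 49.9 CPM in WT.

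Iigp1, an immunity-related GTPase and the most abundant of the list, had 1472 CPM in KO and 723 CPM in WT, a ratio of 2.04 (1.89 to 2.19). Of all members, 90.3% in KO and 85.7% in WT had a UMI of it, against 2.05% of KO and 1.60% of WT keratinocyte barcodes, so the libraries differed in level more than in the share of cells. Gbp2, a guanylate-binding protein, had 886 CPM in KO and 410 CPM in WT. Irgm1, a regulator of the other immunity-related GTPases, had 412 CPM in KO and 170 CPM in WT, a ratio of 2.43 (2.09 to 2.84), and Igtp, another regulator, had 231 CPM in KO and 93.0 CPM in WT. Tgtp2 had the largest ratio, with 67.2 CPM in KO and 9.47 CPM in WT, and its near-identical neighbour Tgtp1 could share reads with it. Gbp4 was among the 12 genes most concentrated in members relative to other barcodes in both libraries. It had 286 CPM in KO and 125 CPM in WT members, against 1.91 CPM in KO and 0.747 CPM in WT in all other barcodes.

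Cd274, the checkpoint ligand PD-L1 that restrains T cells, was named after its values were seen and belongs to none of the lists. At chr19:29367455-29388095 on the plus strand, it had 722 CPM in KO and 109 CPM in WT, a ratio of 6.60 (5.52 to 7.96). The strict cells had 1132 CPM in KO and 101 CPM in WT. UMIs of Cd274 were found in 179 KO members (86.9%) and 33 WT members (42.9%), against 9.12% of KO and 8.04% of WT keratinocyte barcodes. The quartiles did not meet, since the lower quartile of KO cells was 252 CPM and the upper quartile of WT cells 145 CPM. Lymphatic cells had 69.2 CPM in KO and 35.1 CPM in WT, and pericytes 26.7 CPM in KO and 22.2 CPM in WT.

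Genes of MHC class I presentation differed less. None of 17 measured was at least 2-fold higher or lower, against 7.94% and 4.87% of all measured genes. The median log2 ratio was 0.47, and the list summed to 7544 CPM in KO and 6416 CPM in WT. Among strict cells 5 of 18 were at least 2-fold higher, against 5.92% of all genes measured there, with a median of 0.73. B2m, the shared light chain, had 2022 CPM in KO and 1743 CPM in WT. H2-K1, a classical heavy chain, had 1402 CPM in KO and 1116 CPM in WT, and H2-D1, another, had 1794 CPM in KO and 1830 CPM in WT. Tap1, a subunit of the peptide transporter, had 135 CPM in KO and 95.6 CPM in WT members, and 242 CPM in KO and 108 CPM in WT strict cells.

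MHC class II genes did not give a stable answer. All 5 measured were at least 2-fold lower in KO over all members, against 4.87% of all measured genes, with sums of 141 CPM in KO and 1064 CPM in WT. However, a single WT cell held 68.0% of the UMIs of Cd74, the invariant chain, and 76.3% of those of the class II beta chain gene H2-Ab1. In the strict cells the order was the other way, with sums of 200.3 CPM in KO and 31.0 CPM in WT. There Cd74 had 108 CPM in KO and 7.39 CPM in WT, and H2-Ab1 51.1 CPM in KO and 5.91 CPM in WT. By share of cells, Cd74 was found in 23.3% of KO and 11.7% of WT members, against 12.1% of KO and 18.5% of WT keratinocyte barcodes, so the WT share lay below that background and the KO share above it. Median depths were 10259.5 UMIs in KO members and 18873 UMIs in KO keratinocyte barcodes. In WT they were 12266 UMIs in members and 8468.5 UMIs in keratinocyte barcodes, so these shares are not at equal depth. Macrophages carry these genes at high levels, and 10.4% of WT members had at least 3 macrophage markers.

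Each member was also assigned to the vessel segment whose list had the largest share of its genes detected. Capillary genes led in 145 KO members (70.4%, 63.6 to 76.5) and 47 WT members (61.0%, 49.2 to 72.0). Venous genes led in 42 KO members (20.4%, 15.1 to 26.5) and 23 WT members (29.9%, 20.0 to 41.4), and arterial genes in 17 KO members (8.25%) and 7 WT members (9.09%). The intervals of each share overlapped between the libraries. In capillary-leading cells the antiviral list summed to 15218 CPM in KO and 5908 CPM in WT, in venous-leading cells to 8060 CPM in KO and 7697 CPM in WT, and in arterial-leading cells to 7166 CPM in KO and 7274 CPM in WT. Rsad2 had 2400 CPM in KO and 138 CPM in WT in capillary-leading cells, 619 CPM in KO and 342 CPM in WT in venous-leading cells, and 952 CPM in KO and 247 CPM in WT in arterial-leading cells. Cd274 had 868 CPM in KO and 90.4 CPM in WT in capillary-leading cells, 622 CPM in KO and 173 CPM in WT in venous-leading cells, and 397 CPM in KO and 61.7 CPM in WT in arterial-leading cells. The sum of the antiviral list thus differed most in capillary-leading cells, while Rsad2 and Cd274 had the higher level in KO in all 3 segments. The arterial values rest on 17 KO and 7 WT cells, and no difference between segments was tested. Median depths were 8971 UMIs in capillary-leading and 16061.5 UMIs in venous-leading KO cells, and 11930 and 12479 UMIs in WT. Segments were assigned over all members, of which 43.7% in KO and 15.6% in WT had at least 2 pericyte genes. The part of depth and mixture in these values was not tested.

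Venous and postcapillary genes were lower in KO. Of 14 measured, 6 were at least 2-fold lower, against 4.87% of all measured genes, and 1 at least 2-fold higher, with a median log2 ratio of -0.90. In the strict cells 6 of 12 were lower, against 9.08% of all genes measured there, and the median was -0.93. The list summed to 1977 CPM in KO and 3719 CPM in WT. Medians below 0 were also found in lymphatic cells, at -1.37 over 9 measured genes, and in pericytes, at -0.52 over 5, although the sum in lymphatic cells was 3576 CPM in KO and 3351 CPM in WT. The larger share of WT members led by venous genes stands beside this result, and its part in it was not tested.

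Lrg1, a secreted glycoprotein of activated venules (chr17:56119678-56122001, minus strand), had 134 CPM in KO and 486 CPM in WT, a ratio of 0.276 (0.242 to 0.314). It was found in 45.1% of KO and 77.9% of WT members, against 0.456% of KO and 1.23% of WT keratinocyte barcodes. The median cell had 0 CPM in KO and 403 CPM in WT. Its upper quartile in KO cells, 172 CPM, lay below the WT median. Vwf, the platelet-binding factor stored in endothelial granules, had 134 CPM in KO and 276 CPM in WT, a ratio of 0.486 (0.419 to 0.565). In venous-leading cells alone, Vwf had 121 CPM in KO and 399 CPM in WT, but Vwf is itself in the list that assigned these cells. Capillary-leading cells had 158 CPM of Vwf in KO and 217 CPM in WT. Tmem252, a membrane protein gene that was also among the 12 most concentrated in members, had 168 CPM in KO and 489 CPM in WT. Cpe, a carboxypeptidase, was the gene at least 2-fold higher in KO, with 180 CPM in KO and 58.5 CPM in WT. In the strict cells Cpe had 24.9 CPM in KO and 16.3 CPM in WT. Of the 14 measured venous genes, 4 had a ratio above 1.

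The adhesion molecules through which leukocytes leave venules leaned the same way, mostly by less than 2-fold. Of 17 measured adhesion and transmigration genes, 1 was at least 2-fold higher in KO, against 7.94% of all measured genes. At least 2-fold lower were 2, against 4.87%, and the median was -0.49. Strict cells had 1 of 16 higher, against 5.92% of all genes measured there, and 3 lower, against 9.08%, with a median of -0.42. Selp, or P-selectin, had 667 CPM in KO and 1126 CPM in WT, and was found in 22.3% of KO and 44.2% of WT members. Sele, or E-selectin, had 242 CPM in KO and 461 CPM in WT, and was found in 23.3% of KO and 45.5% of WT members. Keratinocyte barcodes with either gene stayed at or under 1.79% in both libraries. Vcam1, which binds the integrin VLA-4, had 62.3 CPM in KO and 236 CPM in WT, a ratio of 0.264 (0.218 to 0.319). The ratio without the top cell of each library was 0.379. Icam1, which binds the integrin LFA-1, had 564 CPM in KO and 1010 CPM in WT. Lgals9, a galectin that is also interferon-inducible, was the member at least 2-fold higher, with 212 CPM in KO and 99.9 CPM in WT.

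**Figure D4:**
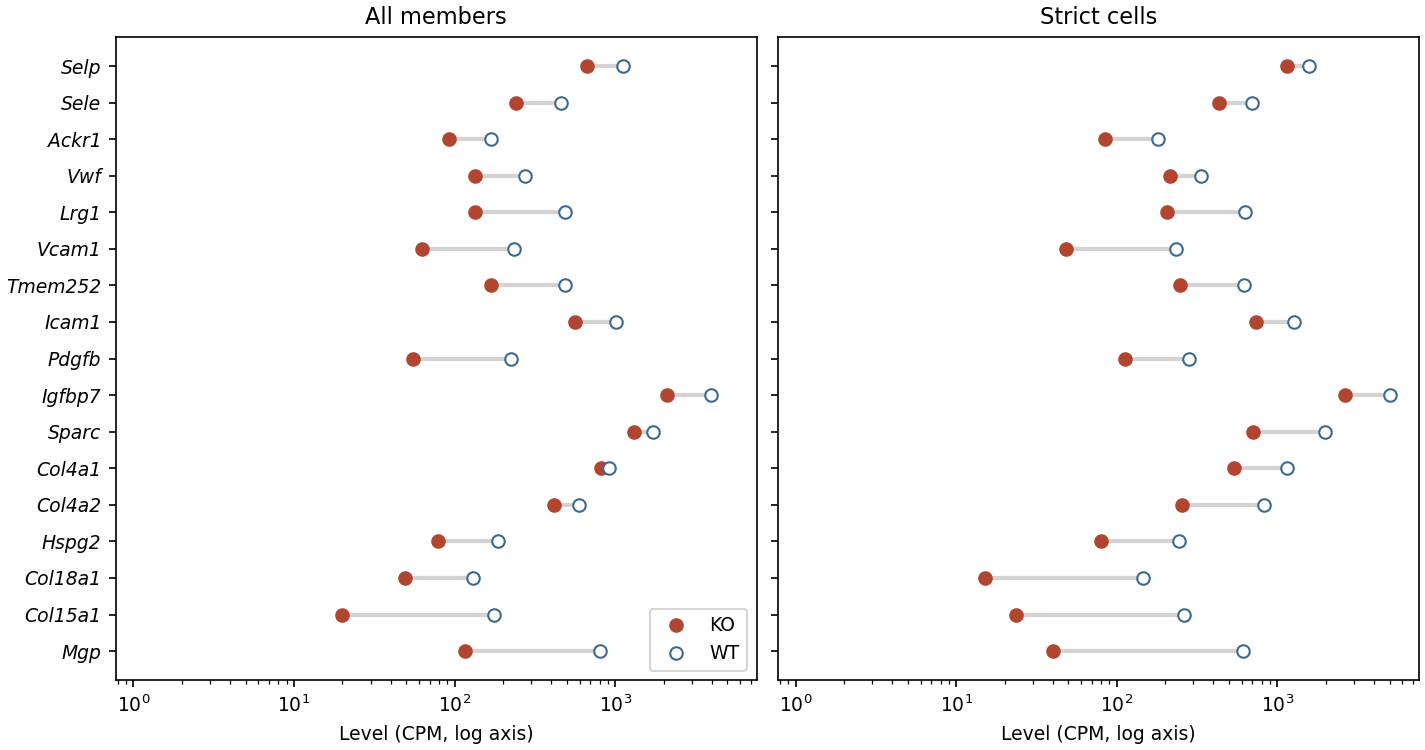
Level (x axis, CPM on a log axis) of selected venous, adhesion and matrix genes and of Pdgfb, from the sprouting list. All members are on the left and strict cells on the right, with filled circles for KO and open circles for WT. Every gene shown is lower in KO in both panels, but the selection leaves out genes that were higher. Over all members, 4 of 14 measured venous, 4 of 17 adhesion and 4 of 18 matrix genes had a ratio above 1. None of these is drawn. The gap is narrowest for Col4a1 in all members (814 CPM in KO and 909 CPM in WT) and wide for Col15a1 (19.8 CPM in KO and 176 CPM in WT).

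Basement membrane and matrix genes were also lower in KO, and more so in the strict cells. Of 18 measured, 6 were at least 2-fold lower, against 4.87% of all measured genes, and 1 higher, with a median of -0.48. In the strict cells 10 of 18 were at least 2-fold lower, against 9.08% of all genes measured there, with a median of -1.04. Col15a1, a collagen of the outer basement membrane zone (chr4:47208161-47313167, plus strand), had 19.8 CPM in KO and 176 CPM in WT, a ratio of 0.112 (0.0828 to 0.150). It was found in 41 KO members (19.9%) and 42 WT members (54.5%), against 0.456% of KO and 1.02% of WT keratinocyte barcodes. Hspg2, or perlecan, had 78.5 CPM in KO and 187 CPM in WT, and Col18a1 had 49.0 CPM in KO and 130.0 CPM in WT. Igfbp7, the list's most abundant gene, had 2098 CPM in KO and 3927 CPM in WT. Mgp, which binds bone morphogenetic proteins, had 116 CPM in KO and 799 CPM in WT, and 1 WT cell held 37.1% of its UMIs.

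The type IV collagens, which pericytes make too, differed more between the libraries in the strict cells than over all members. Col4a1 had 814 CPM in KO and 909 CPM in WT over all members, but 537 CPM in KO and 1144 CPM in WT in the strict cells. Col4a2 had 418 CPM in KO and 598 CPM in WT over all members, and 254 CPM in KO and 822 CPM in WT in the strict cells. Sparc, a matrix protein that binds collagen, had 707 CPM in KO and 1985 CPM in WT in the strict cells. The basement list was also lower in KO in the sums of neighbouring cell types, with 6846 CPM in KO and 13691 CPM in WT pericytes, and 1285 CPM in KO and 2658 CPM in WT lymphatic cells. Its median was -0.85 over 17 measured genes in pericytes but -0.07 over 15 in lymphatic cells, so the lymphatic difference is one of the sum. In all other barcodes together the list came to 965 CPM in KO and 687 CPM in WT.

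Endothelial genes that the rule did not use were lower in KO, with 0 of 22 measured at least 2-fold higher, 6 at least 2-fold lower, against 4.87% of all measured genes, and a median of -0.63. Strict cells had 4 of 23 lower, against 9.08% of all genes measured there, with a median of -0.33. Egfl7, an endothelial matrix-bound protein, had 121 CPM in KO and 389 CPM in WT. Ramp2, which partners the adrenomedullin receptor, had 130 CPM in KO and 408 CPM in WT, and Tek, the angiopoietin receptor, had 26.3 CPM in KO and 61.1 CPM in WT. Cyyr1 had 262 CPM in KO and 228 CPM in WT, and Adgrf5, an adhesion receptor among the 12 most concentrated genes, had 346 CPM in KO and 342 CPM in WT. The larger number of KO members with few endothelial genes, 29.6% with 3 or 4 of the 7 against 16.9% in WT, stands beside these values, and its part in them was not tested.

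Capillary genes were mixed. Of 12 measured, 1 was at least 2-fold higher, against 7.94% of all measured genes, and 2 at least 2-fold lower, against 4.87%. The median was -0.32. The list summed to 8241 CPM in KO and 9534 CPM in WT over all members, but to 8937 CPM in KO and 7450 CPM in WT in the strict cells. Cd36, a fatty acid transporter, had 606 CPM in KO and 269 CPM in WT over all members, a ratio of 2.25 (1.99 to 2.54), and 776 CPM in KO and 186 CPM in WT in the strict cells. Cd36 was found in 76.2% of KO and 50.6% of WT members, against 6.50% of KO and 4.22% of WT keratinocyte barcodes. Fabp4, the fatty acid binding protein and the list's most abundant gene, had 5320 CPM in KO and 6718 CPM in WT over all members, and 5233 CPM in KO and 4251 CPM in WT in the strict cells. The median cell had the opposite order to the sum over all members, with 2685 CPM in KO and 535 CPM in WT. Gpihbp1, which carries lipoprotein lipase into capillaries, had 373 CPM in KO and 463 CPM in WT. Aqp1, a water channel, had 292 CPM in KO and 669 CPM in WT, and Car4, a carbonic anhydrase, had 22.1 CPM in KO and 62.0 CPM in WT. Of 11 measured genes of lipid uptake, 1 was higher and 2 were lower at 2-fold, among them Scarb1, the HDL receptor, with 85.3 CPM in KO and 249 CPM in WT. Of 10 arterial genes, 1 was higher and 2 were lower. The lipid and arterial counts also stand against 7.94% of all measured genes higher and 4.87% lower.

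Chemokines and cytokines were abundant in both libraries and differed little as a list, with a median of -0.28. Of 14 measured, 0 were at least 2-fold higher, against 7.94% of all measured genes, and 2 at least 2-fold lower, against 4.87%. Cxcl1, a neutrophil attractant, had 1869 CPM in KO and 2176 CPM in WT. Cxcl2, another, had 658 CPM in KO and 2217 CPM in WT, a ratio of 0.297 (0.280 to 0.315), and all other barcodes also had less of it in KO, with 620 CPM in KO and 1086 CPM in WT. Il6 had 822 CPM in KO and 638 CPM in WT, and Csf3, the granulocyte growth factor, had 839 CPM in KO and 919 CPM in WT. Cxcl10, an attractant of T cells that interferons induce, had 995 CPM in KO and 643 CPM in WT. Ccl2 had 984 CPM in KO and 1239 CPM in WT over all members, and 297 CPM in KO and 1481 CPM in WT in the strict cells. For Cxcl1, Cxcl2, Cxcl10, Il6 and Ccl2, between 15.9% and 73.4% of keratinocyte barcodes had a UMI in one library or the other.

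**Figure D5:**
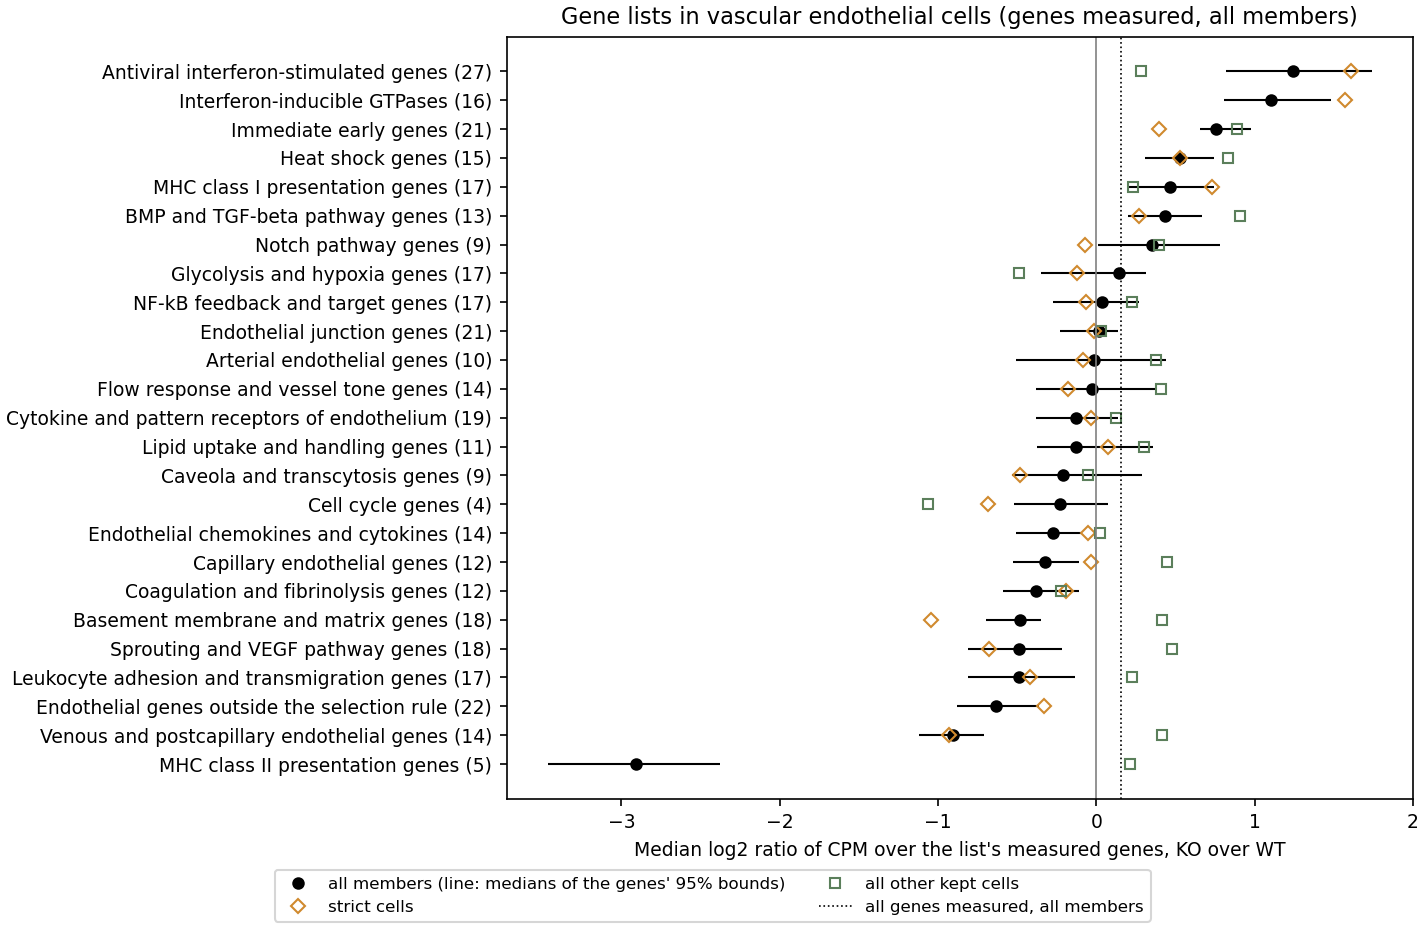
Median log2 ratio of CPM, KO over WT (x axis), over the measured genes of each list, with the number of genes measured in all members in parentheses; circles are all members, diamonds strict cells and squares all other kept cells, each over the genes measured in those cells where at least 3 were. Lists with fewer than 4 genes measured in all members are left out, as is the alarmin list, whose median of -7.54 lies far outside the axis. The antiviral list (1.25) and the GTPases (1.11) lie furthest right of the dotted line at 0.16, and the venous list (-0.90) and MHC class II (-2.91) furthest left among the lists shown.

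Sprouting and VEGF pathway genes had 2 of 18 at least 2-fold higher, against 7.94% of all measured genes, and 6 at least 2-fold lower, against 4.87%, with a median of -0.49. Strict cells had 2 of 15 higher, against 5.92% of all genes measured there, and 5 lower, against 9.08%, with a median of -0.68. Pdgfb, the endothelial signal that recruits pericytes, had 55.2 CPM in KO and 224 CPM in WT, a ratio of 0.246 (0.202 to 0.300). Plxnd1, a semaphorin receptor, had 46.1 CPM in KO and 109 CPM in WT, and Vegfa had 72.7 CPM in KO and 31.9 CPM in WT. Of the 9 measured Notch genes 1 was higher and 0 lower, and of 13 BMP and TGF-beta genes 2 were higher and 0 lower. Both counts stand against 7.94% of all measured genes higher and 4.87% lower. Smad7, an inhibitor of TGF-beta signals, had 214 CPM in KO and 59.4 CPM in WT over all members, and 62.2 CPM in KO and 62.1 CPM in WT in the strict cells.

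Immediate early genes, which respond within minutes to growth factors and to tissue handling, had 5 of 21 at least 2-fold higher in KO, against 7.94% of all measured genes, and 1 lower, with a median of 0.75. Strict cells had 1 of 21 higher, against 5.92% of all genes measured there, and 1 lower, against 9.08%, with a median of 0.40. All other barcodes had a median of 0.89 for the same list. Egr1 had 1325 CPM in KO and 380 CPM in WT members, and 1426 CPM in KO and 473 CPM in WT in all other barcodes. Jun had 1761 CPM in KO and 736 CPM in WT members. Heat shock genes had 0 of 15 past 2-fold either way and a median of 0.53, against 0.84 in all other barcodes. In the strict cells 4 of 14 heat shock genes were at least 2-fold higher, against 5.92% of all genes measured there, also with a median of 0.53. Both lists were thus higher in KO in the rest of the skin as well, and their relation to the interferon genes was not tested.

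Junction and NF-kB genes had medians close to that of all genes. Each count in this paragraph stands against 7.94% of all measured genes at least 2-fold higher and 4.87% at least 2-fold lower. Of 21 junction genes, 0 were at least 2-fold higher or lower, with a median of 0.02. NF-kB targets had 0 of 17 higher and 1 lower (Traf1), with a median of 0.04. Flow response genes had 0 of 14 at least 2-fold higher, and 3 at least 2-fold lower against 4.87% of all measured genes, with a median of -0.03. Klf2, the flow-induced transcription factor, had 151 CPM in KO and 152 CPM in WT. Coagulation genes had 0 of 12 higher and 2 lower, with a median of -0.38, lower than that of the capillary list. Caveola genes had 1 of 9 higher and 1 lower (median -0.21), and cytokine and pattern receptors 1 of 19 higher and 1 lower (median -0.13). Glycolysis genes had 1 of 17 higher and 1 lower (median 0.14). Only 4 cell cycle genes were measured, none past 2-fold.

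Alarmin and acute phase genes were lower in KO in all 4 measured genes, but they were lower in the rest of the skin as well. S100a8, a neutrophil and keratinocyte alarmin, had 5.19 CPM in KO and 876 CPM in WT members, and 181 CPM in KO and 5096 CPM in WT in all other barcodes. It was found in 5.83% of KO and 85.7% of WT members, against 48.8% of KO and 96.2% of WT keratinocyte barcodes. Because S100a8 is also a keratinocyte gene, these barcodes cannot serve as a background of free RNA for it. A single WT member held 70.3% of its UMIs.

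The 12 genes with the largest ratios each way, ranked by the bound of the interval nearest 1, were mostly genes of other cell types. Those higher in KO were Gas1, Prrx1, Twist2, Dio2, Crabp1, Ptgir, Spon1, Rsad2, Shox2, Abcc9, Spp1 and Ifit3. Prrx1, a transcription factor of fibroblasts, had 329 CPM in KO and 17.2 CPM in WT over all members, but 30.4 CPM in KO and 7.39 CPM in WT in the strict cells. Abcc9, a potassium channel subunit of pericytes, had 77.9 CPM in KO and 5.17 CPM in WT over all members, and 1.38 CPM in KO and 0 in WT strict cells. Abcc9 is among the pericyte genes that the strict definition limits, so its low level there follows at least in part from that definition. Those lower in KO were Saa3, S100a9, S100a8, Ccl8, Wfdc17, Pf4, C1qa, C1qc, H2-Aa, H2-Eb1, Npy and Lyz2. C1qa, a complement gene of macrophages, had 5.19 CPM in KO and 102 CPM in WT over all members, with 89.9% of the WT UMIs in 1 cell. Rsad2 and Ifit3 were the genes among these 24 that belong to the interferon lists, and both kept a ratio above 10 in the strict cells, 11.1 for Rsad2 and 10.6 for Ifit3.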

How the data were processed

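The authors deposited raw UMI counts without normalization, per the file headers, for 31053 genes in each of 2 libraries. The submitters' processing notes name Cell Ranger 3.0.2, Seurat 3.0 and mm10, and the matrix header gives software version 3.1.0. Every deposited barcode held at least 500 UMIs, and the cell calling behind this is not given in the sources. Gene positions come from the GENCODE annotation of the same build, and promoter sequences from RefSeq.

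From the deposited counts, barcodes were kept and members chosen by the limits given in the report. UMIs were summed over the members of each library and divided by their total to give CPM. Ratios, KO over WT, carry exact 95% intervals given the sum of both counts, and shares have exact Clopper-Pearson intervals, both for counting error only. A gene counts as measured at a mean of at least 25 CPM over both libraries, and a count of 0 was read against 3 UMIs. Lists are described by their median log2 ratio and by counts past 2-fold. No test between genotypes was possible with 1 library per group. Shares of cells with a UMI are set beside keratinocyte barcodes, those with Krt5 and Krt14 at or above 0.5% of UMIs and fewer than 3 of the 7 genes, a limit set after the data were seen. Doublets were not removed.

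The members, the 27 gene lists and the 15 marker lists were chosen with earlier results of these data known. Genes were named by this rule: the 12 with the largest ratio each way by the bound nearest 1, with at least 50 CPM in the higher library, leaving out mitochondrial, ribosomal, haemoglobin, receptor-segment and unnamed gene models and the genes of the selection rule; from each list those past 2-fold and the most abundant; the genes of the rule and the markers; the 12 highest in members over the rest in both libraries; and Chrna5. Not every gene that the rule takes is reported here. Other genes of the lists, and Cd274, were named after their values were seen. Lymphatic cells had at least 2 of Prox1, Mmrn1 and Reln and at least 2 of Pecam1, Cdh5, Tie1, Flt4 and Lyve1. Pericytes had at least 3 of Rgs5, Kcnj8, Abcc9, Cspg4, Notch3, Myh11 and Higd1b and fewer than 2 of the 7 endothelial genes.

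The calculations used Python 3.11.15 with numpy 2.4.6, scipy 1.17.1, pandas 2.3.3 and matplotlib 3.10.9, and were tested on simulated data. Alternatives covered the UMI, mitochondrial, endothelial gene, keratin and collagen limits, members with genes of other cell types, thinning to 1000 UMIs, equal weight per barcode, the scale and the CPM minimum.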

Additional observations from a re-analysis of the deposited data

Results flagged for a closer look

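In several gene lists the vascular members differed between the libraries in one direction and another cell population in the opposite direction. With 1 library per genotype none of these differences was tested. Values are log2 ratios of summed CPM, KO over WT, and the gap is the vascular ratio minus the other.

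The antiviral interferon-stimulated list had 0.84 in vascular cells, against -0.20 in lymphatic endothelial cells, a gap of 1.04, and against -0.31 in pericytes, a gap of 1.15. The venous and postcapillary list had -0.91 in vascular cells, against 0.09 in lymphatic cells, a gap of -1.01, and against 0.35 in all other kept barcodes, a gap of -1.26. Its median over the 9 genes measured in lymphatic cells was -1.37, so the opposite direction there is one of the sum alone. The endothelial genes outside the selection rule had -0.72 in vascular cells and 0.68 in all other barcodes, a gap of -1.39. The other barcodes had 139 CPM in KO and 87.1 CPM in WT, with 0 genes of this list measured. They hold the lymphatic endothelial cells, 130 of 9399 in KO and 77 of 11549 in WT, and the part of that share was not tested. The basement membrane and matrix list had -0.62 in vascular cells and 0.49 in all other barcodes, a gap of -1.11. Its sums were lower in KO in lymphatic cells (1285 CPM in KO and 2658 CPM in WT) and pericytes (6846 CPM in KO and 13691 CPM in WT) too. Its median in lymphatic cells was -0.07 over 15 measured genes, so the lower level there is one of the sum. MHC class II had -2.91 in vascular cells, against 0.51 in pericytes, a gap of -3.42, and against 0.11 in all other barcodes, a gap of -3.03. A single WT cell held 68.0% of the WT UMIs of Cd74, and the sums of the strict cells run the other way.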

How the results depend on the processing

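No paired analysis was possible because each genotype has 1 library. Removal of the highest Scrublet scores was not run, since tied scores left the cells to remove undefined. Of 104 values for the share ratio, the counts of genes and 5 lists, 73 stayed within their limits. A reversal could be labelled only for the share ratio and for lists whose main median was at least 2-fold, and none was. Counts of genes could not reverse. The venous and basement membrane medians, under 2-fold, stayed negative in every alternative. MHC class II had too few genes for this comparison in the strict cells, where the median of its 2 measured genes was 3.49. List medians and gene values are log2 ratios, KO over WT. The antiviral list ranged from 1.09 to 1.91 and the GTPases from 0.95 to 1.77. Dropping members with a UMI of any of 6 genes of other cell types gave a share ratio of 2.39, 423 genes lower, and medians of 1.91 (antiviral), 1.77 (GTPases) and -0.95 (basement membrane). Thinning gave 643 genes higher, 780 lower and -0.27 for basement membrane. A CPM minimum of 100 gave 98 higher and 76 lower, no minimum 4178 and 2382, and the median ratio scale 345 lower. With 4 of 7 genes, MHC class II had -1.68 and basement membrane -0.34, and with limits of 0.2% -1.97 and -0.72. Equal weight per barcode gave MHC class II -2.18.

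These settings were chosen after seeing the data. Without members with 2 or more pericyte genes the share ratio was 2.16, 345 genes were lower, and the venous list had -1.39, MHC class II -4.23 and basement membrane -1.10. The strict cells gave 1.73 for the share ratio, 396 genes lower, 1.57 for GTPases and -1.04 for basement membrane. With 5 of 7 genes the venous list had -0.67, MHC class II -1.78 and basement membrane -0.27. Without the top cell per gene MHC class II had -1.96.

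Of 1173 values for 85 named genes, 393 left the counting interval and 9 reversed, the cause of which was not tested. A gene could count as reversed only if its main ratio was at least 2-fold either way, so changes of order in other genes are not included. In the strict cells Cd74 had 3.87, H2-Ab1 3.11, H2-Aa 1.49, H2-Eb1 0.75, Igfbp3 -1.02 and Spon1 -1.10. Thinned, Prcp had 1.17 and Bst1 0.17. Without members with genes of other types Igfbp3 had -0.81. The 77 WT members limit precision for genes of low level.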
